A study of Mus musculus with 59 samples.

Results

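Phase II conjugation enzymes attach a polar group to drugs, bilirubin, steroids and bile acids so that these can leave the body in bile or urine. Glutathione transferases (Gst genes) add glutathione, UDP-glucuronosyltransferases (Ugt genes) add a sugar from a UDP donor, and sulfotransferases (Sult genes) add sulfate. The liver is the main organ of this chemistry. The set described here was every protein-coding RefSeq gene of the mouse genome (build mm10) whose symbol begins with Gsta, Gstm, Gstp, Gstt, Ugt1, Ugt2, Ugt3 or Sult. It held 60 of 21774 protein-coding genes on 11 chromosomes, with 18 Gst, 21 Ugt and 21 Sult genes. A ChIP-seq peak was given to the gene with the nearest transcription start site (TSS) within 100 kb of the peak center, and 567 of 102931 peaks went to the set.

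The peaks came from livers of male C57BL/6 mice. ChIP-seq recovers the DNA to which a protein is bound and sequences it, and a peak is a place where that DNA is enriched over input chromatin. BCL6 is a zinc finger repressor of transcription, PPARα is a nuclear receptor that fatty acids activate and that drives the fasting response of the liver, and PPARδ is its close relative. All 3 factors were mapped in wild type livers of mice fed ad libitum and of mice fasted overnight, and BCL6 was also mapped in fed mice that carry Bcl6 fl/fl, a floxed allele of the repressor without Cre, called floxed livers here. Ages are not given in the labels. Each of the 7 peak lists joins 3 replicates into a set of positions with no height, score or depth. A gene is therefore with or without a call in a list, no value has an error between replicates, and no difference could be tested. Intervals given below are 95% Wilson intervals for shares and exact Poisson intervals for densities. They cover counting error only, and neighbouring sites of a gene cluster are not independent.

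Peaks whose centers lay no more than 200 bp apart were joined by single linkage into sites, the same reach that the authors used for shared peaks. The set had 186 sites, of which 5 were called in all 7 lists, 2.69% (1.15% to 6.14%) beside 1.60% of all sites. The 5 sites called everywhere lay 1842 bp downstream of the TSS of Ugt1a1 (the enzyme that glucuronidates bilirubin), 26701 bp downstream of that of Ugt2b35, 38875 bp upstream of Ugt2a3, 13368 bp upstream of Gsta1 and 142 bp upstream of a TSS of Sult2a8. These are printed below, with a site called in the most lists of its family for each other family (Gstt1 had another in 6 lists), as the places where binding was called most often whatever the factor and the feeding state. They are read from GRCm38, the assembly of mm10, on the plus strand, over 200 bp at the site center. The window at Ugt3a1 ends before the first transcribed base and is 108 bp long. Capitals mark matches to the BCL6 element TTCCTAGAA with up to 1 mismatch, or to a DR1 element, the PPAR binding sequence. A DR1 element is a direct repeat of AGGTCA with a spacer of 1 base, here with up to 2 mismatches in its 12 fixed bases. Both strands were searched.
Ugt1a1, 7 lists, chr1:88213701-88213900: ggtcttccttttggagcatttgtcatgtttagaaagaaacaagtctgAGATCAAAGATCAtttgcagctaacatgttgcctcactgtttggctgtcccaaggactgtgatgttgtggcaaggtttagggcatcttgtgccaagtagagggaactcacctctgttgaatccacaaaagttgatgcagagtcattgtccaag
Ugt2b35, 7 lists, chr5:87027461-87027660: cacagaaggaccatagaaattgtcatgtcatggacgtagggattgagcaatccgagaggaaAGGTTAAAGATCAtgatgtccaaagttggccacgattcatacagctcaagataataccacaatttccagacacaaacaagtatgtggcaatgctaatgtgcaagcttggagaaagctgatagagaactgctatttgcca
Ugt2a3, 7 lists, chr5:87375970-87376169: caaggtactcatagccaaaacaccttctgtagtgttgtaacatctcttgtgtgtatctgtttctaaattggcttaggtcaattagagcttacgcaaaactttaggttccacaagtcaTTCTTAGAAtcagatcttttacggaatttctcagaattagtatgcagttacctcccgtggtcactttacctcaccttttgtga
Gsta1, 7 lists, chr9:78217201-78217400: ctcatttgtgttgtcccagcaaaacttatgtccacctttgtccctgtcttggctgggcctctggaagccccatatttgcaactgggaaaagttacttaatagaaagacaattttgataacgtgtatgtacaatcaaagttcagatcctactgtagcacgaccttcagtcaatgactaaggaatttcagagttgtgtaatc
Sult2a8, 7 lists, chr7:14438593-14438792: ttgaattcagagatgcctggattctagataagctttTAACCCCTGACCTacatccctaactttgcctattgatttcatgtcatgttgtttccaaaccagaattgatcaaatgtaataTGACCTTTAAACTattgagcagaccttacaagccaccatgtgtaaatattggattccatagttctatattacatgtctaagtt
Gstm1, 6 lists, chr3:108013293-108013492: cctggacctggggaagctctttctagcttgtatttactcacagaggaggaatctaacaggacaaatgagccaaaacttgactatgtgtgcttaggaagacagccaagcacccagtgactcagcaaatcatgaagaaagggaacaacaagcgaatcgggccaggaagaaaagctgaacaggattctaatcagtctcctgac
Gstt2, 6 lists, chr10:75835399-75835598: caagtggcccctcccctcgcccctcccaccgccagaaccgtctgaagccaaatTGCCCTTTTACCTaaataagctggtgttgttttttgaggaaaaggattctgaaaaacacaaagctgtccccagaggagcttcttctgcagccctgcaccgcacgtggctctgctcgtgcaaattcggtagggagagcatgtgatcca
Ugt3a1, 6 lists, chr15:9279714-9279821: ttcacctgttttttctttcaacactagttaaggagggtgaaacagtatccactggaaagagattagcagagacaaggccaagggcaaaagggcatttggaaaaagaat
Gstp3, 5 lists, chr19:4059472-4059671: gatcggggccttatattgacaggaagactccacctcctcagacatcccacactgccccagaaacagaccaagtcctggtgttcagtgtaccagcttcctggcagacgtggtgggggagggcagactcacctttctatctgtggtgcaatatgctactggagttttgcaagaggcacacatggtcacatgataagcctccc

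The window in intron 1 of Ugt1a1 held the DR1 match AGATCAAAGATCA, and the intergenic window at Ugt2b35 held AGGTTAAAGATCA. Sult2a8 held a pair of DR1 matches in a window that lies upstream of one of its TSSs and within its intron 1. Gstt2 held the match TGCCCTTTTACCT, and the window at Ugt2a3 held the only BCL6 match of the 9 windows, TTCTTAGAA. The windows at Gsta1, Gstm1, Ugt3a1 and Gstp3 held no match at these settings. The site at Gstm1 was in intron 7, and the windows at Gsta1 and Ugt2a3 were intergenic. Those at Gstt2 and Gstp3 lay upstream of the TSS used here. The annotated gene is longer there, and it held the Gstt2 window and most of the Gstp3 window.

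Such matches were rare close to the centers. Within 50 bp at the center, 2 of 113 BCL6 sites of the set held the BCL6 element, 1.77% (0.487% to 6.22%), beside 5.07% of all 17599 BCL6 sites and 1.62% to 1.64% of windows 1000 bp to either side of these. The side windows of the set held it at 1 of 113, 0.885%, and at 4 of 113, 3.54%. These counts are too small to tell the centers of the set from its flanks. A DR1 element was in 6 of 156 PPARα sites of the set, 3.85% (1.77% to 8.14%), beside 4.68% of all 33399 PPARα sites and 0.704% to 0.719% of their side windows. The side windows of the set held DR1 at 1 of 156 and at 0 of 156 (Wilson interval up to 2.40%). At 200 bp, the width printed above, the BCL6 element was in 11.5% of BCL6 sites of the set and 15.8% of all, and DR1 was in 12.8% of PPARα sites of the set and 14.0% of all. In each case the interval of the set covered the share of all sites. A match is a description of letters, and the absence of a match says only that the letters are not in the window.

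Most members had binding nearby. Of the 60 genes, 55 had at least 1 peak of some list, 91.7%, beside 50.0% of all protein-coding genes. A BCL6 peak was called at 43 members in fed livers, 71.7% (59.2% to 81.5%) beside 25.9% of all genes, and at 35 in fasted livers, 58.3% (45.7% to 69.9%) beside 19.0%. In floxed livers 44 members had BCL6, 73.3% (61.0% to 82.9%) beside 28.6%. PPARα was called at 51 members in fed livers, 85.0% (73.9% to 91.9%) beside 32.0%, and at 47 in fasted livers, 78.3% (66.4% to 86.9%) beside 43.5%. PPARδ was called at 21 members in fed livers, 35.0% (24.2% to 47.6%) beside 17.0%, and at 10 in fasted livers, 16.7% (9.31% to 28.0%) beside 7.70%. In every list the interval of the members lay above the share of all genes. All genes include many that the liver does not use, and whether the members differ from other liver genes was not tested.

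The same was seen per length of genome, which matters because clustered genes leave each other little space. The genome nearest to the members came to 3.27 Mb of 1555 Mb. Fed BCL6 peaks lay there at 31.8 per Mb (26.0 to 38.5), beside 8.05 per Mb over all protein-coding genes. Fasted BCL6 had 20.2 per Mb beside 5.13, and BCL6 in floxed livers 32.1 beside 9.35. PPARα had 36.7 per Mb fed beside 11.6, and 40.1 fasted beside 16.3. PPARδ had 9.17 per Mb fed beside 4.04 and 3.36 fasted (1.68 to 6.02) beside 1.32. Each value lay above that of all genes, with the interval clear of it, and PPARα fasted had the highest and PPARδ fasted the lowest density. The farthest peak given to a member was 76816 bp from its TSS. Non-coding genes were not considered, and where they competed for peaks, the set kept 67 of 104 fed BCL6 and 77 of 120 fed PPARα peaks.

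**Figure D1:**
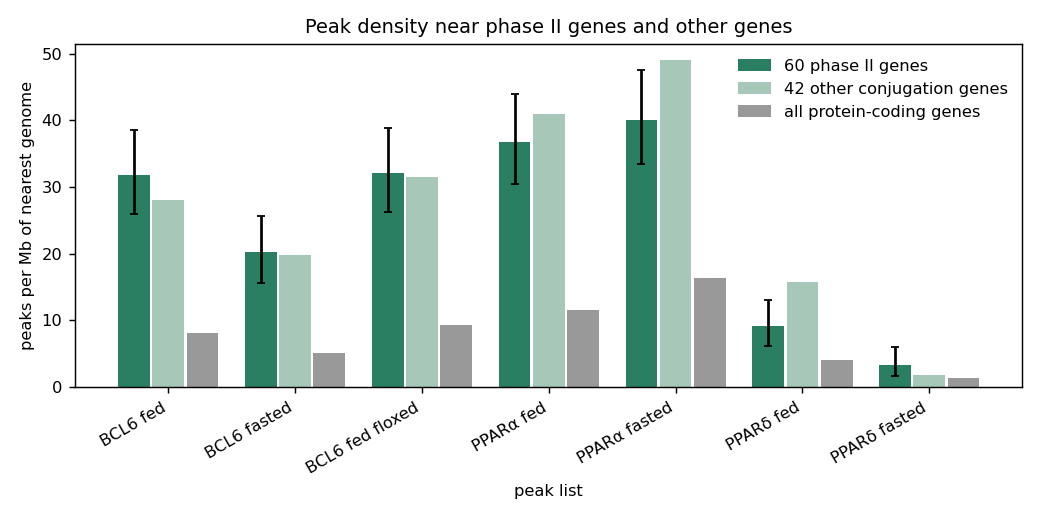
Peaks per Mb of nearest genome (vertical axis) in each of the 7 peak lists (horizontal axis) for the 60 phase II genes with exact Poisson intervals, the 42 other conjugation genes and all protein-coding genes. Phase II genes exceed all genes in each list, for example 31.8 against 8.05 per Mb for fed BCL6. Other conjugation genes had 28.0 per Mb in that list. They lay above the phase II interval for fed PPARδ (15.8 per Mb) and fasted PPARα (49.0 per Mb), and inside it in the other lists.

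Other genes of the same chemistry had calls at much the same rate for BCL6 and PPARα, and more for fed PPARδ. Their peaks per Mb were higher for fed PPARδ and fasted PPARα. A list of 43 of them, of which 42 were placed on a chromosome, took in the xenobiotic receptors, the supply of UDP-glucuronic acid, sulfate donor and glutathione, other transferases, exporters and enzymes that reverse conjugation. At least 1 peak was called at 36 of the 42, 85.7% beside the 50.0% of all genes. Fed BCL6 was called at 76.2% beside 25.9% and fasted BCL6 at 57.1% beside 19.0%. PPARα was called at 76.2% fed beside 32.0% and at 83.3% fasted beside 43.5%. PPARδ was called at 54.8% fed beside 17.0%, above the interval of the phase II genes (24.2% to 47.6%), and at 14.3% fasted beside 7.70%. Their densities were 28.0 per Mb for fed BCL6, 19.8 for fasted BCL6, 40.9 for fed PPARα and 49.0 for fasted PPARα. PPARδ had 15.8 per Mb fed and 1.75 fasted. The fed PPARδ value was above the interval of the phase II genes (6.19 to 13.1), as was fasted PPARα (33.5 to 47.5), and the others lay inside the intervals. All 6 receptors and regulators had a peak, beside 50.0% of all genes. Among them, Nr1i2 (the xenobiotic receptor PXR) had 8 sites, Nr1i3 (CAR) 2 and Nfe2l2 (NRF2, which controls the response to electrophiles) 10. Papss2, which makes the sulfate donor, had 18 sites, Gclc (the first step of glutathione synthesis) 14 and the exporter Abcc2 11. No peak was called at Ggt1, Gstcd, Gsto1, Gsto2, Hpgds or Nat1.

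Counts by gene are drawn in the grid of genes and lists. Members without any call were Gstm5, Sult1c1, Sult2b1, Sult6b1 and Ugt1a7c. A peak of every list was assigned to 7 members, Gsta1, Gstp3, Gstt2, Sult2a8, Ugt1a1, Ugt2a3 and Ugt2b35. These 7 made up 11.7% (5.77% to 22.2%) beside 4.09% of all genes. BCL6 in C57BL/6 livers and PPARα were both called at 46 members, 76.7% (64.6% to 85.6%) beside 25.5%. BCL6 without any PPAR was called at 3 members (Sult2a4, Sult3a1 and Sult5a1), with an interval of 1.71% to 13.7% that covers the 3.33% of all genes. A PPAR without BCL6 in any list was called at 4 members (Sult1c2, Sult2a2, Sult6b2 and Ugt1a8), 6.67% (2.62% to 15.9%), a smaller share than the 16.5% of all genes.

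**Figure D2:**
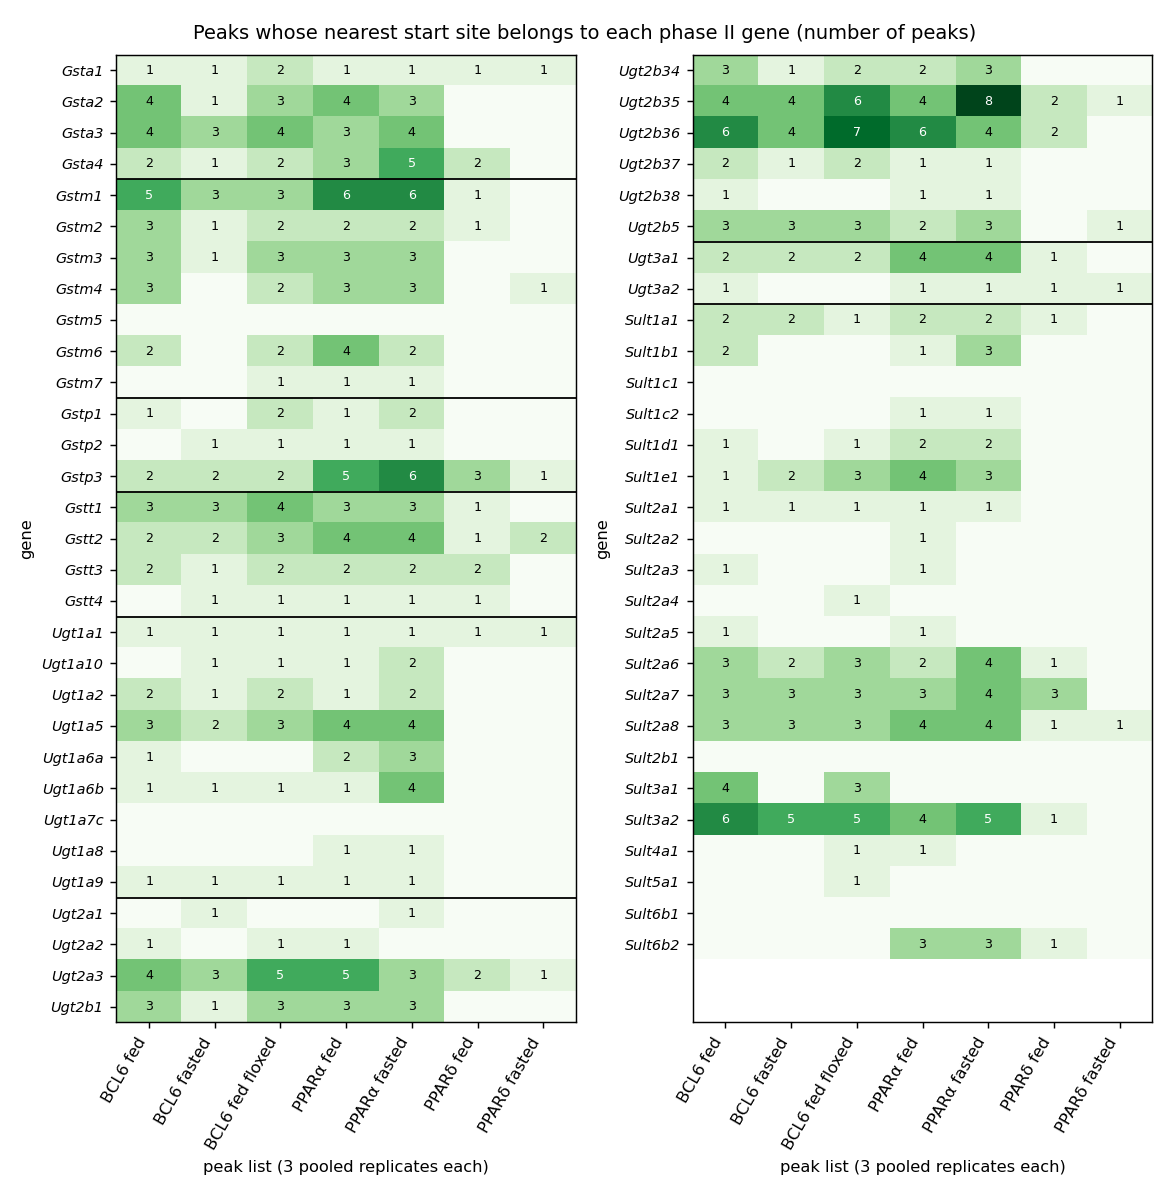
Number of peaks (colour and digit) whose nearest TSS belongs to each of the 60 genes (rows, lines divide the families) in each of the 7 peak lists (columns). Ugt2b35 and Ugt2b36 carry the most peaks, 29 each over the lists, 5 genes are empty, and Sult3a1 has BCL6 in fed livers only.

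The families differed in peaks per Mb of nearest genome. The Gstt genes, theta class transferases on chromosome 10, had 142 PPARα peaks per Mb in fed and in fasted livers (68.3 to 262) and 99.7 BCL6 peaks per Mb in both states (40.1 to 205). The Gstp genes of chromosome 19 had 153 fed PPARα peaks per Mb (61.7 to 316). The Sult genes had 17.3 PPARα peaks per Mb fed (11.8 to 24.6) and 15.6 BCL6 peaks fed (10.4 to 22.6), the lowest in these lists but with an interval that overlaps that of Ugt3. The intervals of Gstt and Sult did not overlap for BCL6 fed or for PPARα in either state. Intermediate values were those of Gstm at 106 fed PPARα peaks per Mb (64.1 to 166), Ugt1 at 66.0 (34.1 to 115), Gsta at 62.2 (31.0 to 111), Ugt2 at 38.0 (24.6 to 56.1) and Ugt3 at 29.7 (9.65 to 69.4). The order among the Gst families is not resolved, since their intervals overlap. Gst clusters are compact, with 0.0456 Mb of genome nearest to Gstp, whereas the 8 Sult2a genes alone are nearest to 0.930 Mb. As counts, fed PPARα had 10 peaks at 4 Gstt genes, 7 at 3 Gstp genes, 25 at 10 Ugt2 genes and 31 at 21 Sult genes. Per gene, Gstt, Gstp and Ugt2 were thus close to each other, and their densities differ with the length of genome per gene.

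Among alpha class transferases, Gsta3 on chromosome 1 had 7 sites and Gsta2 on chromosome 9 had 6. Gsta3 had 4 BCL6 peaks in fed, 3 in fasted and 4 in floxed livers, 3 PPARα peaks fed and 4 fasted, and no PPARδ peak. Its promoter site, 108 bp upstream of the TSS (chr1:21240331-21240621), was called in all 5 BCL6 and PPARα lists. Gsta2 had 4 fed BCL6 peaks and 1 fasted, with 4 PPARα peaks fed and 3 fasted. Gsta4, which clears lipid peroxidation products, had 5 sites, of which 3 lay in introns of Cilk1 up to 34397 bp upstream of its TSS. Its PPARα count was 3 fed and 5 fasted. Gsta1 had 2 sites, the one called in every list and a site of floxed BCL6 alone, in surroundings of which 57.2% can take a unique read.

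Gstm1, a mu class transferase on chromosome 3, had 7 sites. They held 5 BCL6 peaks in fed, 3 in fasted and 3 in floxed livers, 6 PPARα peaks in each feeding state and 1 PPARδ peak in fed livers. Only the site in intron 7 (chr3:108013247-108013531, 4425 bp from the TSS) carried all 3 factors. At the Gstm1 promoter, 42 bp upstream of the TSS, PPARα was called fed and fasted and BCL6 was not called. Gstm4 had 5 sites, and Gstm3 and Gstm6 had 4 each. Over the family, BCL6 had 16 peaks fed and 5 fasted, and each of the 5 was a fed peak as well. Thus 11 of 16 BCL6 sites of the Gstm genes, 68.8% (44.4% to 85.8%), were called in fed livers only, beside 45.4% of all BCL6 sites. PPARα had 19 peaks fed and 17 fasted there.

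Gstp3, a pi class gene on chromosome 19, had 7 sites with 5 PPARα peaks fed and 6 fasted, 3 PPARδ peaks fed and 1 fasted, and 2 BCL6 peaks in each BCL6 list. Its promoter site, 125 bp upstream of the TSS, was called for BCL6 and PPARα in each of their lists. Gstp1 had 3 sites and Gstp2 had 1. At the Gstp1 promoter, 118 bp upstream, only fasted PPARα was called. Gstt2 and Gstt3 had 5 sites each, Gstt1 had 4 and Gstt4 had 1. The printed site of Gstt2, 618 bp upstream of its TSS, was called in every list except fed BCL6 of C57BL/6 livers. Sites given to Gstt3 lay largely in introns of its neighbour Gstt1 (4 of 5), since the nearest TSS is that of Gstt3.

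The 9 Ugt1a genes share their last exons on chromosome 1 and differ in the first, so each has a start of its own. Ugt1a5 had 5 sites, with 3 BCL6 peaks in fed, 2 in fasted and 3 in floxed livers and 4 PPARα peaks in either state. Ugt1a6b had 4 sites and Ugt1a6a and Ugt1a2 had 3 each. Of the 19 PPARα sites of the family, 7 were called only in fasted livers, 36.8% (19.1% to 59.0%) beside 35.9% of all PPARα sites, and 1 only in fed livers. Ugt1a6b had 1 PPARα peak fed and 4 fasted, one of them 109 bp upstream of its TSS. Ugt1a1 had a single site, in intron 1 (chr1:88213672-88213936), and it was the only place in the family with PPARδ. Introns of some Ugt1a genes span the starts of others. In clusters such as this the gene that a site serves is not known, and 141 of the 186 sites of the whole set had another phase II gene as the next nearest.

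The Ugt2 genes, which act on steroids and bile acids, form a cluster on chromosome 5. Ugt2b36 and Ugt2b35 had 8 sites each, Ugt2a3 had 7 and Ugt2b1 had 4. Ugt2b36 had 6 BCL6 peaks in fed, 4 in fasted and 7 in floxed livers, with 6 PPARα peaks fed and 4 fasted and 2 PPARδ peaks fed. Ugt2b35 had 4 BCL6 peaks fed and fasted and 6 in floxed livers, with 4 PPARα peaks fed and 8 fasted. PPARα counts of these neighbours thus ran in opposite order between feeding states. Of the 10 Ugt2 genes, 7 had a site in the promoter, beside 48.3% of the set and 20.1% of all genes. Ugt3a1, whose human counterpart transfers N-acetylglucosamine, had 4 sites, and Ugt3a2 had 1, which lay 68 bp upstream of its TSS and was called for fed BCL6, PPARα and PPARδ in either state.

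Among sulfotransferases, Sult3a2 on chromosome 10 had 7 sites and 26 peaks. These were 6 BCL6 peaks in fed, 5 in fasted and 5 in floxed livers, 4 PPARα peaks fed and 5 fasted, and 1 PPARδ peak fed. Its neighbour Sult3a1 had 4 sites with 4 BCL6 peaks in fed and 3 in floxed livers, and no peak of BCL6 in fasted livers or of a PPAR in any list. The 4 sites lay 10386, 6840, 4848 and 100 bp upstream of the TSS. Sult3a1 is named here after its values were seen. Sult2a8, a hydroxysteroid sulfotransferase on chromosome 7, had 5 sites, with 3 BCL6 peaks in each BCL6 list and 4 PPARα peaks in each state. Sult2a6 had 5 sites, 39397 bp or more from its TSS. The upstream side of Sult2a7 held 3 sites called in 6 lists each, at 25428, 29866 and 32430 bp, and absent only from fasted PPARδ. Sult6b2 had 5 sites without BCL6, but 4 of them lay in introns of St8sia1. The remaining Sult2a genes had 1 or 2 sites each.

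**Figure D3:**
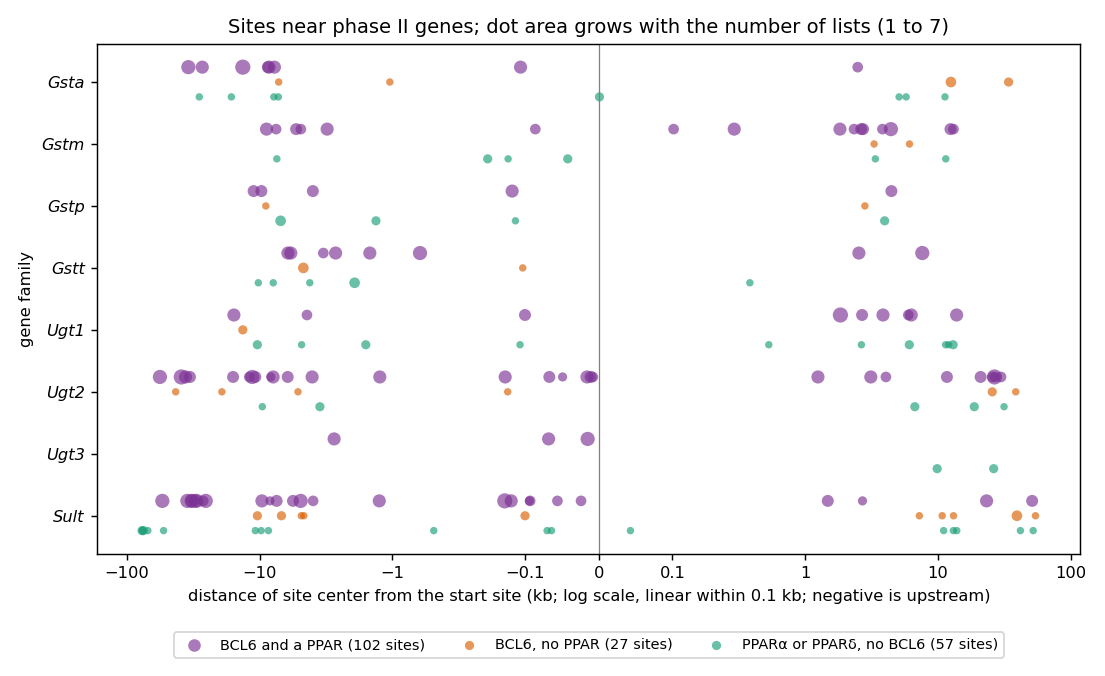
Distance of each of the 186 sites from the nearest TSS in kb (horizontal axis, log scale but linear within 0.1 kb, negative values upstream) by family (vertical axis), with colour for the factors called and dot area for the number of lists. BCL6 of any list with a PPAR was called at 102 sites (54.8% beside 42.8% of all sites), BCL6 alone at 27 (14.5% beside 14.5%) and a PPAR alone at 57 (30.6% beside 42.7%), and the largest dots sit both at starts and far from them.

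Fewer BCL6 peaks were called at the set in fasted than in fed livers, and about as many PPARα peaks. BCL6 had 104 peaks at the set in fed and 66 in fasted livers, while the whole lists held 15642 and 9613. PPARα had 120 and 131, with 21410 and 29085 in the whole lists. PPARδ had 30 and 11, with 7328 and 2399. As a share of its list, the set took 0.665% of fed and 0.687% of fasted BCL6 peaks, 0.560% and 0.450% of PPARα peaks and 0.409% and 0.459% of PPARδ peaks. The numbers of BCL6 and PPARδ peaks at the set were thus smaller in fasted livers by about as much as the lists, while the fasted PPARα list was larger with a smaller share of it at the set. The depth of the libraries is not in the lists, and its part in these counts was not tested.

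Peak by peak, 57 of 104 fed BCL6 peaks of the set had a fasted peak within 200 bp, 54.8% (45.2% to 64.0%), beside 48.9% of the whole list. Of the 66 fasted peaks, 57 had a fed peak, 86.4% (76.1% to 92.7%) beside 79.6%. For PPARα, 79.2% (71.1% to 85.5%) of fed peaks were called in fasted livers beside 79.9%, and 72.5% (64.3% to 79.4%) of fasted peaks were called in fed livers beside 58.8%. In PPARδ 7 of 30 fed peaks were called fasted, 23.3% (11.8% to 40.9%) beside 20.9%, and 7 of 11 fasted peaks were called fed, 63.6% (35.4% to 84.8%) beside 63.8%. Of these comparisons, only for fasted PPARα peaks did the share of the whole list lie outside the interval of the set. Put as sites, 36 of 156 PPARα sites of the set were called in fasted livers only, 23.1% (17.2% to 30.3%), beside 35.9% of all PPARα sites.

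By gene, the shares of the set lay close to those of all genes for BCL6 and differed for PPARα. Of the 47 members with BCL6 in C57BL/6 livers, 28 had fewer peaks fasted than fed, 59.6% (45.3% to 72.4%) beside 59.9% of all genes with BCL6. More fasted peaks were called at 5 (Gstp2, Gstt4, Sult1e1, Ugt1a10 and Ugt2a1), 10.6% (4.63% to 22.6%) beside 11.8%. BCL6 was called fed and not fasted at 12, 25.5% (15.3% to 39.5%) beside 31.8%, among them Gstm4, Gstm6, Sult1b1, Sult3a1 and Ugt3a2, and fasted and not fed at 4, 8.51% (3.36% to 19.9%) beside 6.79%. Each of these shares of all genes lay inside the interval of the set. Of the 52 members with PPARα, 16 had more peaks fasted than fed, 30.8% (19.9% to 44.3%), beside 58.9% of all genes with PPARα, and 10 had fewer, 19.2% (10.8% to 31.9%) beside 12.6%. Ugt2a1 was the only member with PPARα in fasted livers and not in fed livers, 1.92% (0.340% to 10.1%) beside 29.9%. PPARα in fed livers and not in fasted livers was seen at Sult2a2, Sult2a3, Sult2a5, Sult4a1 and Ugt2a2, 9.62% (4.18% to 20.6%) beside 4.77%. The shares of all genes lay outside the intervals of the set for more fasted peaks and for PPARα in fasted livers alone, and inside them for the other PPARα shares. PPARα had been called at 51 of 60 members in fed livers, which leaves few members that could have it in fasted livers alone. Genes with PPARα in fasted livers alone also count among those with more fasted peaks. They were 2970 of the 5861 such genes over all genes, and 1 of the 16 members. These contrasts are thus not separate, and genes with fed PPARα were not compared on their own.

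BCL6 calls repeated in the other fed genotype. Of the 104 fed BCL6 peaks of C57BL/6 livers, 83 had a peak in floxed livers, 79.8% (71.1% to 86.4%) beside 69.4% of the whole list, and 83 of 105 floxed peaks had one in C57BL/6 livers, 79.0% (70.3% to 85.7%) beside 62.2%. Both shares lay above those of the whole lists, outside the intervals. By gene, 37 of the 50 members with a fed BCL6 peak had it in both genotypes, 74.0% (60.4% to 84.1%) beside 66.3% of all such genes. It was in C57BL/6 livers alone at 6, 12.0% (5.62% to 23.8%) beside 12.7%, and in floxed livers alone at 7, 14.0% (6.95% to 26.2%) beside 21.0%. The 3 fed-only sites of Sult3a1 at 10386, 6840 and 100 bp were called in floxed livers too.

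BCL6 and PPARα largely shared their places at these genes. Fed and fasted lists of C57BL/6 livers joined, 94 of 113 BCL6 sites of the set had a PPARα site within 200 bp, 83.2% (75.2% to 89.0%), beside 77.4% of all BCL6 sites. From the other side, 94 of 156 PPARα sites had BCL6, 60.3% (52.4% to 67.6%), beside 40.8% of all PPARα sites, which lies outside the interval. Centers of these pairs were a median of 18 bp apart, and 93 of the 94, 98.9%, were under 100 bp apart. In the whole lists the median was 25 bp, and 96.1% were under 100 bp apart. Of PPARδ sites of the set, 31 of 34 had PPARα, 91.2% (77.0% to 97.0%) beside 84.8%. By family, the share of PPARα sites with BCL6 was highest for Ugt2, 26 of 33 or 78.8% (62.2% to 89.3%). It was lowest for Gstp, 4 of 9 or 44.4% (18.9% to 73.3%), and was 9 of 19 or 47.4% (27.3% to 68.3%) for Ugt1. These intervals overlap, and those of Gstp and Ugt1 cover the 40.8% of all PPARα sites.

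**Figure D4:**
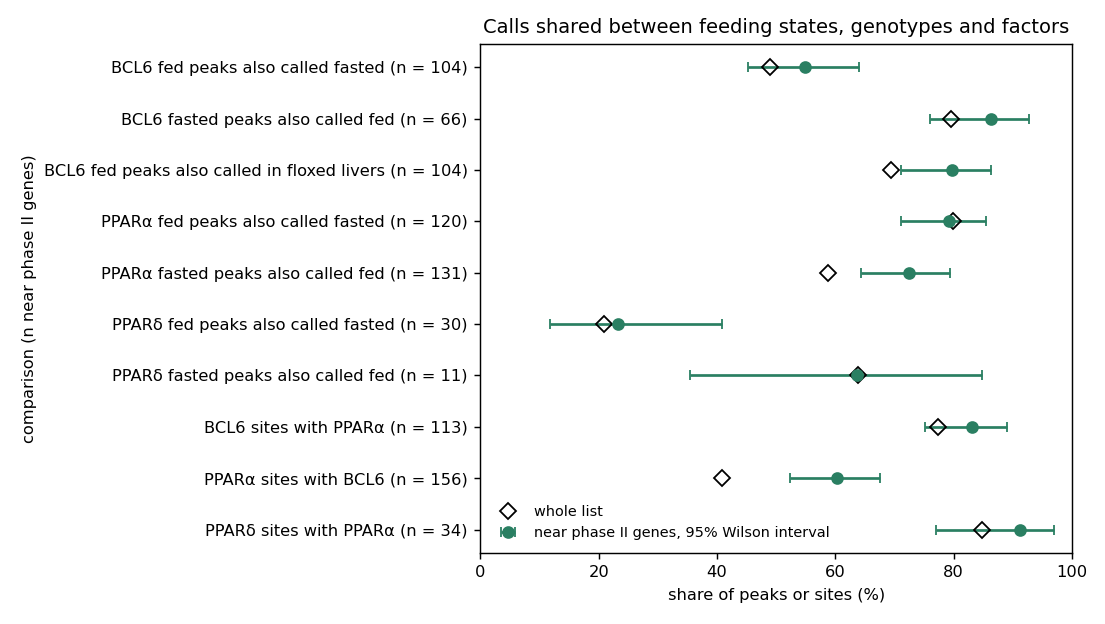
Share (%) of peaks or sites that were also called in another feeding state, genotype or factor (rows, n near phase II genes in brackets), for the phase II genes (dots, 95% Wilson intervals) and for the whole lists (diamonds). PPARα sites with BCL6 (60.3% against 40.8%) and fasted PPARα peaks also called fed (72.5% against 58.8%) lie above the whole lists, as do fed BCL6 peaks called in floxed livers (79.8% against 69.4%).

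Feeding states combined at the shared places. BCL6 and PPARα were each called fed and fasted at 45 of the 186 sites, 24.2% (18.6% to 30.8%) beside 14.8% of all 40474 sites. At 23 sites BCL6 was called fed only while PPARα was called in both states, 12.4% (8.38% to 17.9%) beside 8.46%. At 7 sites both were called fed only, 3.76% (1.83% to 7.56%) beside 2.82%, and at 2 sites BCL6 was called fed only and PPARα fasted only, 1.08% (0.295% to 3.84%) beside 1.97%. Sites with a single call were fewer than among all sites, 57 or 30.6% (24.5% to 37.6%) beside 39.6%. Among them were 24 of fasted PPARα, 12.9% (8.83% to 18.5%) beside 22.1%, and 12 of fed PPARα, 6.45% (3.73% to 10.9%) beside 5.24%. A further 9 were of fed BCL6, 4.84% (2.57% to 8.94%) beside 3.96%, and 8 of floxed BCL6, 4.30% (2.20% to 8.26%) beside 5.01%. The few left were of fasted BCL6 or of PPARδ. The intervals excluded the share of all sites for the 45, for the single calls as a group and for those of fasted PPARα, and covered it for the other fed and floxed classes, that of 23 sites narrowly.

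Many peaks of the set lay at promoters, taken as 1000 bp upstream to 100 bp downstream of a TSS. Promoters made up 2.23% of the genome nearest to the set and 1.73% of that nearest to all protein-coding genes. Of fed BCL6 peaks of the set, 16.3% (10.5% to 24.6%) were in a promoter beside 3.77% of the whole list, and of fasted ones 15.2% (8.44% to 25.7%) beside 4.36%. In floxed livers it was 15.2% (9.60% to 23.3%) beside 6.52%. PPARα had 17.5% (11.7% to 25.3%) beside 8.11% fed, and 19.8% (13.9% to 27.5%) beside 14.2% fasted. PPARδ had 16.7% (7.34% to 33.6%) beside 5.65% fed, and 27.3% (9.75% to 56.6%) beside 7.003% fasted, from 3 of 11 peaks. Only for fasted PPARα did the interval reach the share of the whole list. The median distance to the TSS was 6043 bp for fed BCL6 peaks of the set, whose genes lie close together. It was 17530 bp for the 12522 peaks of the whole list that had a coding TSS within 100 kb.

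There were 32 promoter sites at 29 genes, 48.3% of the set (36.2% to 60.7%) beside 20.1% of all genes. They differed from the 4788 promoter sites of all genes in how often BCL6 was called. Fed BCL6 was at 17, 53.1% (36.4% to 69.1%) beside 12.4%, fasted BCL6 at 10, 31.2% (18.0% to 48.6%) beside 8.65%, and floxed BCL6 at 16, 50.0% (33.6% to 66.4%) beside 23.8%. Fasted PPARα was called at 26, 81.2% (64.7% to 91.1%) beside 86.5%, and fed PPARα at 20, 62.5% (45.3% to 77.1%) beside 36.0%. PPARα was called fasted and not fed at 9, those of Gstm3, Gstp1, Ugt1a6b, Ugt2b34, Ugt2b35, Ugt2b5, Sult1b1, Sult1c2 and Sult2a7. That is 28.1% (15.6% to 45.4%), fewer than the 55.0% of all promoter sites. At 6 of these no other list had a call, 18.8% (8.89% to 35.3%) beside 49.4%. The reverse, fed without fasted PPARα, was seen at 3 (Ugt2a3, Sult1c2 and Sult2a3), 9.38% (3.24% to 24.2%) beside 4.49%. BCL6 was called fed and not fasted at 9 promoter sites, including Ugt1a5, Ugt2b36, Ugt3a2, Sult1b1 and Sult3a1, again 28.1% but beside 5.97%. It was called fed and fasted at 8, including Gsta3, Gstp3, Ugt2b1, Ugt3a1 and both starts of Sult2a8, with an interval of 13.3% to 42.1% beside 6.41% of all promoter sites. Of the 154 sites outside promoters, 90 had their center outside curated transcripts, 56 lay in introns and 8 in exons of these.

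Gene duplicates limit what such reads can show, since only reads with a single place in the genome were kept. Within 10 kb of the TSSs, the share of start positions whose exact sequence of 75 bases occurs once in the genome had a median of 94.8% over the 60 genes, beside 98.8% over the other conjugation genes. It was lowest at Sult2a2 (55.5%), Gsta1 (57.2%), Sult1b1 (69.5%) and Gstm2 (69.7%), and 9 members were under 80%. These are upper limits, since reads that differ by a mismatch can also be lost. The 5 members without a peak had 86.1% to 99.5%. For Sult2a2, Sult2a5 and Sult2a4, with 1 or 2 peaks each and 55.5%, 71.6% and 75.9% unique positions, a low count and a lack of usable reads cannot be told apart. The same limit holds for Gsta1, Ugt1a10 (74.3%), Sult2a1 (75.1%) and Ugt2b38 (78.8%), with 1 or 2 sites each. Within 1 kb of the TSS, Gsta1 had 31.7% and Sult2a1 41.6% unique positions.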

How the data were processed

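The deposited files are lists of peak positions in bp (chromosome, start and end), without counts, scores or any normalization. Per the methods, the authors aligned 75-base single-end reads to mm10 with Bowtie, kept reads with a unique place and at most a single read per position, pooled the replicates, called peaks over input in HOMER and filtered them with DESeq2. From these, peaks were assigned to the nearest of 26906 TSSs of curated transcripts (predicted where a gene has none; RefSeq on GRCm38.p6, the assembly of mm10) within 100 kb. The depth of the 21 libraries is unknown. The members and gene lists were chosen with earlier results of these data known. Named genes are the 4 members of each family with the most sites, and members outside that rule are named for exceptions or small counts, after their values were seen. Introns are counted on a curated transcript. No test was run. The functions were tested on simulated data, where planted sites, elements and sequence copies were recovered. Samples of the series without a peak list were not analysed here. The scripts ran on Python 3.11.15 with SciPy 1.17.1 for intervals, NumPy 2.4.6 for arrays, and Matplotlib 3.10.9 for plots.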

Additional observations from a re-analysis of the deposited data

How the results depend on the processing

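No paired analysis was possible because each list pools its replicates, so leaving out a replicate and a stricter peak threshold could not be run either. Of 143 values under other settings, 125 stayed close to the main value. Close meant within 1.5 times the main count or inside the main interval. For unique sequence it meant within a standard deviation over the members. Reach (50 kb or 1 Mb), other coding TSSs, the distance that counts as shared and the floxed list moved none. When non-coding genes also competed for peaks, the counts at the set were 67 for BCL6 fed, 43 fasted and 68 floxed, 77 for PPARα fed and 81 fasted, and 15 for PPARδ fed and 6 fasted, and 5 members had fasted PPARδ. Of all peaks at coding genes, 58.1% to 65.9% remained, beside 50.0% to 65.2% at the set, so fewer peaks for any coding gene follow from the construction. The genome nearest to the members was then 1.54 Mb, not 3.27 Mb. Densities, added after seeing the data, were 43.6 per Mb for BCL6 fed beside 8.26 over all coding genes. Fasted BCL6 had 28.0 beside 5.24, and floxed BCL6 44.2 beside 9.72. PPARα had 50.1 fed beside 12.2 and 52.7 fasted beside 18.1. PPARδ had 9.75 fed beside 4.10 and 3.90 fasted beside 1.29. The BCL6 and PPARα densities of the set lay above their main intervals, and those of PPARδ inside them. The BCL6 element was in 11.5% of BCL6 sites at 200 bp and in 0% without mismatches, and DR1 was in 9.62% of PPARα sites at 100 bp, 12.8% at 200 bp and 0.641% with 1 mismatch, as a wider window or a stricter match must give.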
